A study of Mus musculus with 172 samples.

Results

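The RecQ helicases are a family of 5 genes in the mouse, *Wrn*, *Blm*, *Recql*, *Recql4* and *Recql5*, and their expression after sleep deprivation is described here in 2 tissues. The genes were chosen by name, as *Wrn* and its relatives, and all 5 were listed in both cerebral cortex and liver, out of 16308 genes listed in either tissue. The question was whether the fall of *Wrn* transcripts in the cortex of sleep-deprived mice was shared by the rest of its family.

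The mice were males of the BXD panel, inbred lines derived from a cross of the strains C57BL/6J (B6) and DBA/2J (D2), together with the parental strains and their reciprocal F1 hybrids. Mice of the SD group were kept awake for 6 h from light onset, and those of the Ctr group could sleep and were killed at the same time of day. Each library was made from the pooled RNA of mice of a line, for 1 tissue and 1 condition, which gave 39 pools per tissue and condition: 33 BXD/RwwJ lines, 4 parental pools (2 per strain) and 2 F1 pools (BD-F1 and DB-F1). Fewer mice were available for BXD79, BXD85 and BXD101, and the fit was repeated without these lines. No group carried an engineered allele or a drug treatment, and the spread between pools of a condition therefore holds the genetic differences between lines as well as technical error.

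RecQ helicases unwind DNA and are kept from bacteria to mammals, where they act at stalled replication forks, in homologous recombination and at telomeres. In humans, inherited loss of *WRN* causes Werner syndrome, a disease of premature ageing, loss of *BLM* causes Bloom syndrome, with short stature and cancer, and mutations of *RECQL4* cause Rothmund-Thomson syndrome. Most neurons and hepatocytes of an adult mouse do not divide, so that repair rather than replication is the known role in view in these tissues.

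Reads counted on the listed genes came to 18995492 to 28998853 per library in cortex and 4681101 to 8269401 in liver. These totals leave out reads that fell on no listed gene, so they are below the reads sequenced. The error that the counting of reads gives to a change was larger in liver for each relative of *Wrn*. For *Wrn* itself it was alike in the tissues (0.10 in cortex and 0.098 in liver, log2 units). The tissues were as labelled: all 5 neuron markers were listed in cortex, with a summed level of 7668 to 8720 CPM in Ctr, and all 5 hepatocyte markers in liver, with 932 to 1923 CPM. Of the hepatocyte markers, 1 of 5 was listed in cortex. A pair of libraries stood apart from the rest in the level of long against short transcripts (the median deviation of the longest genes minus that of the shortest genes, taking from 5039 bases and up to 2919 bases in cortex and from 4871 and up to 2767 in liver, in log2 units). The Ctr cortex library of BXD90 was at -0.45, where the next lowest Ctr library was at -0.10, and the SD liver library of BXD70 was at -0.99, where the next lowest SD library was at -0.39. Results that rest on these pools are given with and without them.

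*Recql5* was the most highly expressed family member in cortex and *Wrn* in liver, when levels were taken per kilobase of annotated exon. In cortex of Ctr mice, *Recql5* averaged 4.46 ± 0.22 CPM per exonic kilobase (SD over 39 pools), followed by *Wrn* at 3.24 ± 0.37, *Recql* at 2.65 ± 0.15, *Blm* at 1.37 ± 0.16 and *Recql4* at 0.80 ± 0.099. Each neighbouring pair in that order was separated by more than the sum of their SDs. The order depends on the lengths, which are of GENCODE exons, while reads were counted on RefSeq genes. Without division by length, *Wrn* and *Recql* were alike in Ctr cortex (means of 4.36 and 4.31 log2 CPM). In liver of Ctr mice, *Wrn* averaged 11.04 ± 1.23 CPM per exonic kilobase, *Recql5* 7.98 ± 0.73, *Recql* 3.21 ± 0.47, *Blm* 2.07 ± 0.45 and *Recql4* 2.02 ± 0.53. *Blm* and *Recql4* did not differ there beyond their spread. The tissues were normalized separately, so that no level was compared between them.

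All 5 genes lie on the minus strand, on separate chromosomes, in the mm9 annotation (GENCODE vM1). *Wrn* covers chr8:34344856-34495999, *Blm* chr7:87599879-87680005, *Recql* chr6:142298862-142335607, *Recql4* chr15:76533984-76540963 and *Recql5* chr11:115753909-115794791. Each of *Recql*, *Recql4* and *Recql5* overlaps a listed gene on the opposite strand (*Pyroxd1*, *Mfsd3* and *Sap30bp*), whose reads a stranded count keeps apart.

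The promoters of *Blm*, *Recql* and *Recql5* were in the RefSeq table of promoter windows (GRCm38.p6, 250 bases before to 50 after a start). That table held no window for *Wrn* or *Recql4*, so these 3 genes are shown for availability and not for their response. Printed are the parts that lie outside every RefSeq gene, 5′ to 3′ on the minus strand, with matches to the CCAAT box (CCAAT or its reverse complement ATTGG) and to the GC box (GGGCGG or CCGCCC) in capitals.
Blm, chr7:80535149-80535248: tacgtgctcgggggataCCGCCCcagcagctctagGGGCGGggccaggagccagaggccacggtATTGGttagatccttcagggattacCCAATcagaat
Recql, chr6:142387101-142387210: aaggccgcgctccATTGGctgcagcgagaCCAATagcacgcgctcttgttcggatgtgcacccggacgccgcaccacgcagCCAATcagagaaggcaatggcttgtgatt
Recql5, chr11:115933515-115933577: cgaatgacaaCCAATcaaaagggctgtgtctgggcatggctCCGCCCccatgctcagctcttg
The whole windows of all 3 genes held at least 2 matches to the CCAAT box and at least 2 to the GC box, on either strand. Of all 32851 windows, 37.4% held a CCAAT box and 35.7% a GC box. The E2F motif TTCCCGC was found in the windows of *Recql* alone and in 4.60% of all windows, while neither the E-box CACGTG (7.15%) nor the cAMP response element TGACGTCA (1.79%) was in any of them. A match of letters does not show that a factor binds.

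In cortex, *Wrn* and *Blm* fell after SD, *Recql4* rose, *Recql* rose slightly, and *Recql5* was close to its Ctr level. Of the 5 genes, 2 were called lower and 2 higher at a limma adjusted p under 0.05, where 68.4% of all 14896 genes listed in cortex were called, 35.4% lower and 33.0% higher. A call as such was thus common, and sizes and signs carry the comparison.

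*Wrn*, which encodes a helicase with an added exonuclease domain, had a level in Ctr cortex between 3.97 (BXD65) and 4.66 (BXD87) log2 CPM, with a median of 4.40. In SD cortex its level ranged from 3.55 (BXD85) to 4.24 (BXD48), with a median of 3.84. The groups overlapped, as those of every RecQ gene in both tissues did (1.40% of genes in cortex and 0.121% in liver had no overlap), but 27 of 39 SD pools lay below the lowest Ctr pool. The level of *Wrn* was lower after SD in 38 of 39 pools, by 0.49 on average on the log2 scale (SE 0.039, limma adjusted p = 1.66e-19), that is, it fell by 28.8%. BXD90, whose Ctr library stood apart, was the exception, with a change of 0.034. Without it the mean change was -0.50. With all pools and the line as a block, the SE was larger, at 0.043, and the limma adjusted p was 2.97e-14.

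*Blm*, the helicase that dissolves joined DNA molecules together with topoisomerase IIIα, fell by a similar amount from a lower level. Its Ctr levels in cortex ran from 2.26 (BXD90) over a median of 2.76 to 3.08 (D2-2) log2 CPM, and its SD levels from 1.77 (BXD101) over 2.16 to 2.52 (BXD89). The SD pools were the lower ones, with 28 of 39 below the lowest Ctr pool and 36 of 38 when BXD90 was left out. The mean change was -0.59 (SE 0.040, limma adjusted p = 2.92e-23), and the level fell in 38 of 39 pools, with BXD90 again the only rise (0.18). It was -0.61 without BXD90.

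*Recql4*, whose product takes part in the start of replication and in mitochondrial DNA maintenance, moved the other way. In cortex it had Ctr levels of 1.17 (BXD45) to 2.00 (BXD50) log2 CPM, median 1.71, and SD levels of 1.65 (BXD48a) to 2.49 (BXD44), median 2.16. Of the SD pools, 32 of 39 were above the highest Ctr pool. The mean change was 0.45 (SE 0.043, limma adjusted p = 4.68e-16), a rise of 36.9% seen in all pools but BXD48a (-0.12). Levels of *Recql4* rested on few reads, with a median of 71 per Ctr library.

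*Recql*, which encodes the smallest of the family's proteins, and *Recql5*, whose product binds RNA polymerase II, changed least in cortex. The median level of *Recql* was 4.30 log2 CPM in Ctr and 4.38 in SD, and its mean change of 0.071 (SE 0.018, limma adjusted p = 2.80e-04) was a rise in 31 of 39 pools. The median level of *Recql5* was 4.95 in Ctr and 4.92 in SD. Its mean change of -0.033 (SE 0.016) gave a limma adjusted p of 0.0550, and of 0.0446 with the line as a block, with a 95% interval from -0.064 to -0.0019. With that block 76.3% of all genes in cortex were called, and 39.6% of all genes were called lower. The level of *Recql5* was lower in 26 of 39 pools.

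**Figure D1:**
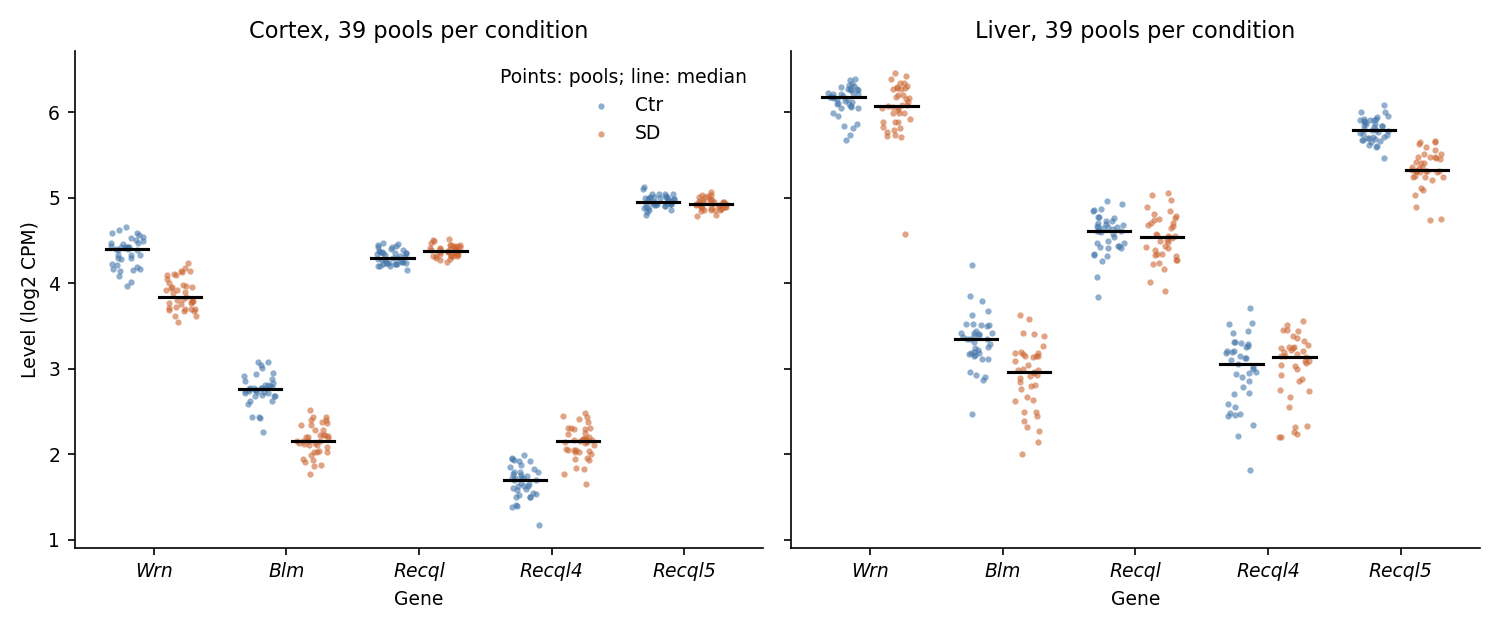
Level of each RecQ gene in log2 CPM (vertical axis) in the 39 Ctr pools (blue) and 39 SD pools (orange) of cortex (left) and liver (right), with a black line at the median of each group. In cortex the SD points of *Wrn* and *Blm* lie lower than the Ctr points and those of *Recql4* higher, while in liver *Recql5* and *Blm* are lower, and the lowest *Wrn* point, 4.58, is BXD70.

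In liver *Recql5* and *Blm* fell after SD, whereas *Wrn*, *Recql* and *Recql4* did not pass the test. Thus 2 of 5 genes were called lower and 0 higher by limma, against 22.6% and 21.5% of the 14107 genes listed in liver. At an unadjusted p under 0.05 and with voom weights the count of higher members was also 0. With the line as a block 53.9% of all genes were called, and the same 2 members.

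*Recql5* had Ctr levels in liver from 5.46 (BXD50) to 6.08 (BXD73) log2 CPM, with a median of 5.80. Its SD levels ran from 4.74 (D2-1) to 5.67 (BXD89), with a median of 5.33, and 28 of 39 SD pools were below the lowest Ctr pool. The level was lower in 39 of 39 pools, by 0.46 on average (SE 0.041, limma adjusted p = 2.08e-16), which means that it fell by 27.4%. The largest change was -1.06 in D2-1 and the smallest -0.033 in BXD89.

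*Blm* in liver ranged from 2.47 (DB-F1) to 4.22 (BXD81) log2 CPM in Ctr, with a median of 3.35, and from 2.00 (BXD66) to 3.63 (BXD101) in SD, with a median of 2.96. The groups overlapped broadly, with 6 SD pools below the lowest Ctr pool. The mean change was -0.42 (SE 0.079, limma adjusted p = 6.27e-06), and the level fell in 34 of 39 pools. BXD101, a line with few mice, stood out with a rise of 0.76, and a median of 51 reads per SD library limited the precision.

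*Wrn* in liver had Ctr levels of 5.67 (BXD67) to 6.38 (BXD101) log2 CPM, with a median of 6.17, and SD levels of 4.58 (BXD70) to 6.45 (BXD79), with a median of 6.07. Its mean change was -0.095 (SE 0.057, limma adjusted p = 0.180), with lower levels in 26 of 39 pools. The change of BXD70 was -1.24, and without this pool the mean change was -0.064 (adjusted p = 0.231). With all pools and the line as a block, the SE was 0.042 and the limma adjusted p was 0.0516, just short of the threshold. With the level of long against short transcripts of each library as a covariate, an alternative chosen after the data were seen, the mean change of *Wrn* was -0.071 (SE 0.030) and passed the test (limma adjusted p = 0.0395). *Recql* and *Recql4* changed by -0.039 (limma adjusted p = 0.609) and 0.032 (0.806), with 95% intervals from -0.15 to 0.072 and from -0.15 to 0.21.

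Markers of B cells fell in liver alongside *Blm* and *Recql5*. All 4 genes of the B cell list were called lower there, where 22.6% of all genes were called lower and 21.5% higher. Their summed level went from a median of 12.3 CPM (6.44 to 26.4) in Ctr to 5.17 CPM (2.30 to 12.7) in SD. None of the 4 was listed in cortex, where *Blm* also fell. In liver limma called 0 of 5 hepatocyte and 0 of 4 Kupffer cell markers, and of 3 vessel markers 1 lower (*Cldn5*, -0.37) and 1 higher (*Pecam1*, 0.25). The hepatocyte marker *Alb* averaged 3644 reads in liver, fewer than *Aldh1l1* of the astrocyte list (4333), and the reason was not tested. The hepatocyte calls therefore do not show whether the share of these cells changed. Of the 8 markers of dividing cells, limma called 0 in liver, and in cortex 1 of the 4 that were listed, *Plk1*, was called higher. In cortex, where 35.4% of all genes were called lower and 33.0% higher, 3 of 5 neuron markers were called lower, with a summed level of 7668 to 8720 CPM in Ctr and 7457 to 8383 CPM in SD, as were 2 of 4 oligodendrocyte, 2 of 4 microglia and 1 of 3 vessel markers. Called higher there were 1 of 4 astrocyte markers (*Aldh1l1*, 0.12) and 2 of 3 vessel markers (*Pecam1*, 0.17, and *Flt1*, 0.13). The part of these cell types in the RecQ changes was not tested. In whole tissue, fewer cells of a type and less RNA per cell cannot be told apart.

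**Figure D2:**
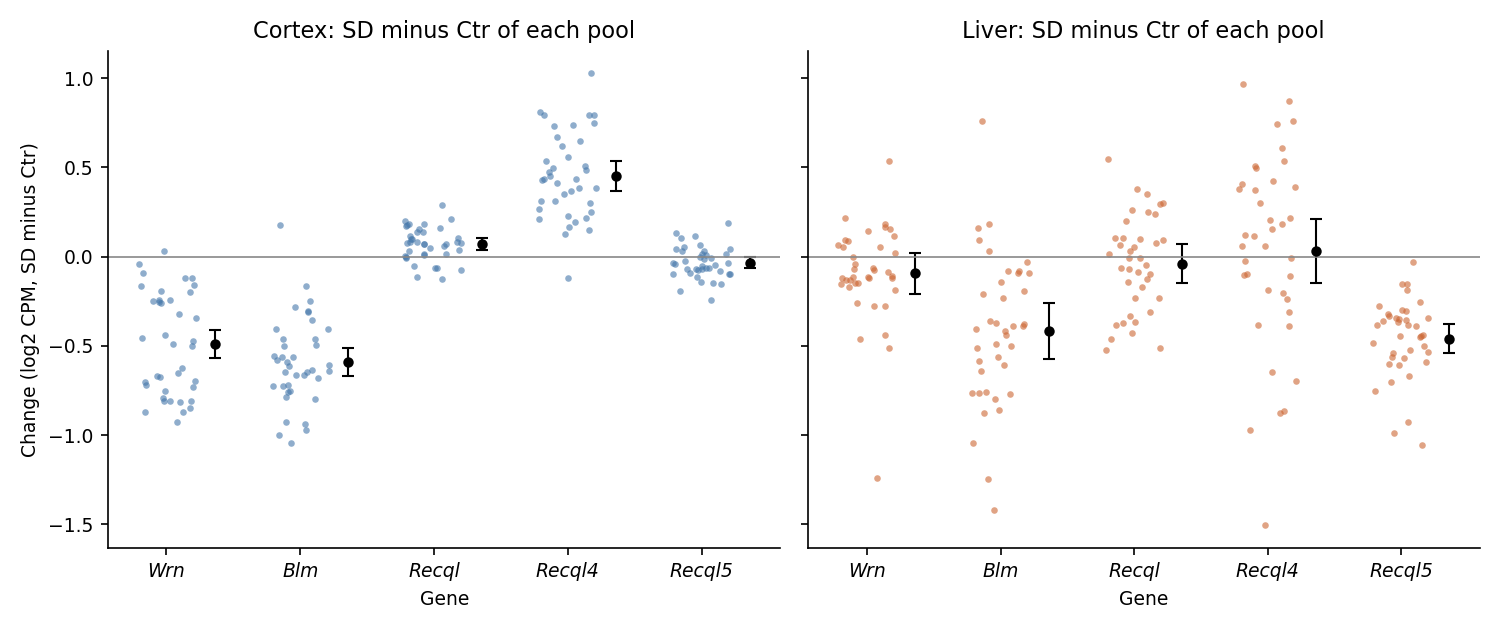
Change in level (log2 CPM, SD minus Ctr, vertical axis) of each RecQ gene in each of 39 pools of cortex (left) and liver (right), with the mean and its 95% interval from limma in black beside the points. Nearly all cortex points of *Wrn* and *Blm* are below 0 and those of *Recql4* above it, and in liver all points of *Recql5* are below 0.

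Set directly against *Wrn*, *Blm* was the relative whose cortex response was nearest, and the other relatives differed from *Wrn* clearly. The change of each relative minus that of *Wrn* in the same pool was tested by a two-sided permutation of signs (100000 resamples), with p-values adjusted over 8 tests, and 1e-05 is the smallest p that these resamples give. In cortex *Blm* differed from *Wrn* by -0.10 (SE 0.049, permutation p = 0.0476, adjusted p = 0.0635), with the larger fall in *Wrn* in 16 of 39 pools. *Recql5*, *Recql* and *Recql4* differed from *Wrn* by 0.46 (SE 0.047), 0.56 (SE 0.048) and 0.94 (SE 0.066), each at an adjusted p of 2e-05, and were higher than *Wrn* in 37, 38 and 39 of 39 pools.

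In liver *Blm* and *Recql5* fell further than *Wrn*. There *Blm* and *Recql5* differed from *Wrn* by -0.32 (SE 0.073, adjusted p = 1.6e-04) and -0.37 (SE 0.049, adjusted p = 2e-05), and were higher than *Wrn* in 9 and 4 of 39 pools. *Recql* (adjusted p = 0.267) and *Recql4* (0.103) did not pass, with differences of 0.055 (SE 0.049) and 0.13 (SE 0.073).

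The response differed between tissues for 4 of 5 genes, where 57.6% of 12695 genes did (limma on the per-pool difference of the responses, liver less cortex). The difference was 0.40 for *Wrn* (SE 0.062, adjusted p = 6.24e-07), whose change was higher in liver in 35 of 39 pools. It was -0.43 for *Recql5* (SE 0.037, adjusted p = 2.19e-13) and -0.42 for *Recql4* (SE 0.095, adjusted p = 2.00e-04), with the liver change higher in 1 and 10 of 39 pools. *Recql* passed narrowly (-0.11, SE 0.047, adjusted p = 0.0434) and did not with libraries centred on their medians (0.0517). For *Blm*, the gene that fell in both tissues, the difference was 0.17 (SE 0.085, adjusted p = 0.0798).

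*Wrn* and *Blm* each fell in nearly all cortex pools, and the sizes of their falls were only loosely related. Both fell in 38 of 39 pools, and *Wrn* fell while *Recql4* rose in 37. As each gene alone moved 1 way in 38 of 39 pools, these counts say little about sharing. Across the 37 strains (parental pools averaged, 33 relations tested, of which the 10 with long against short transcripts were chosen after the data were seen), the changes of *Wrn* and *Blm* had a Pearson r of 0.35 (permutation p = 0.0317, adjusted p = 0.105) and a Spearman rho of 0.23 (p = 0.175, adjusted p = 0.360). The r was 0.22 without the 2 strains farthest from the median of *Wrn*. The lines are related by descent, which makes them less than independent.

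In liver, the change of *Wrn* went with that of *Recql4* (r = 0.60, permutation p = 3e-04, adjusted p = 0.0033), but the rank correlation did not pass (rho = 0.39, p = 0.0169, adjusted p = 0.0797). The r fell to 0.39 without the 2 strains farthest out, and BXD70 had the lowest change of both genes (-1.24 and -1.51). The change of *Wrn* in liver went more closely with the change of long against short transcripts in the same libraries (r = 0.82, permutation p = 1e-05, adjusted p = 3.3e-04, rho = 0.62, p = 1.3e-04, adjusted p = 0.00429), with r = 0.60 without the 2 strains farthest out. For *Recql4* that r was 0.63 (permutation p = 1e-04, adjusted p = 0.00165, rho = 0.50, p = 0.0016, adjusted p = 0.0146), with 0.50 left without the 2 farthest. The relation was not limited to these genes. For *Recql* in liver r was 0.45 (permutation p = 0.00218, adjusted p = 0.0144, rho = 0.58, p = 2.7e-04, adjusted p = 0.00446), with 0.52 without the 2 farthest. *Recql5* in liver passed by rank but not by r (r = 0.41, permutation p = 0.0184, adjusted p = 0.0757, rho = 0.49, p = 0.00221, adjusted p = 0.0146), with r = 0.43 without the 2 farthest. *Blm* in liver passed by neither (r = 0.17, permutation p = 0.294, adjusted p = 0.511, rho = 0.33, p = 0.0437, adjusted p = 0.144), with r = 0.37 without the 2 farthest. In cortex the same r for *Wrn* was 0.28 (permutation p = 0.0670, adjusted p = 0.184, rho = 0.10, p = 0.550, adjusted p = 0.726) and -0.0050 without the 2 farthest strains. For *Blm* in cortex it was 0.51 (permutation p = 0.00794, adjusted p = 0.0374, rho = 0.24, p = 0.146, adjusted p = 0.345), and it rested on the 2 farthest strains, without which r was 0.080.

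**Figure D3:**
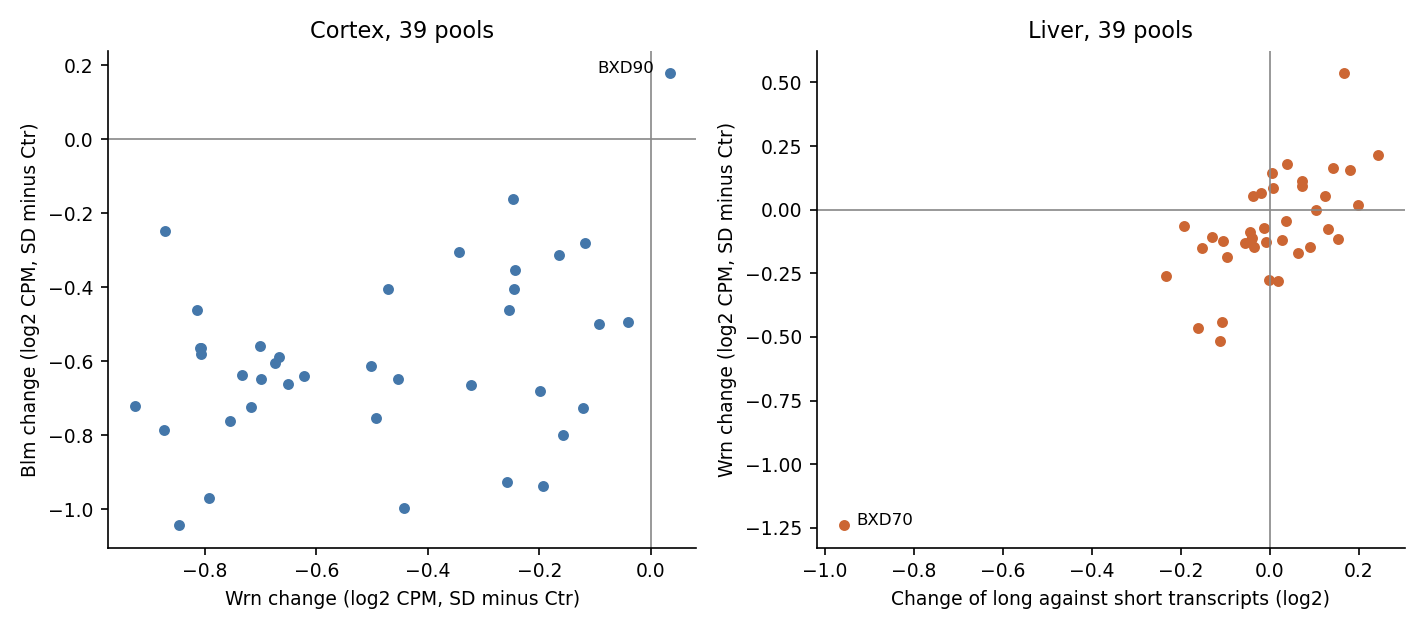
Left, change of *Blm* (vertical axis) against change of *Wrn* (horizontal axis) in 39 cortex pools, both log2 CPM, SD minus Ctr. Right, change of *Wrn* (vertical axis, log2 CPM) against the change of long against short transcripts (horizontal axis, log2) in 39 liver pools. All left-hand points but BXD90 lie below 0 on both axes, and BXD70 lies far below the others on the right.

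The family members differed in how far the spread of their responses exceeded the counting error. In cortex the SD of the change of *Wrn* over 39 pools was 0.29, against 0.10 from the counting of reads alone, which leaves 86.8% of the variance beyond counting. For *Recql* (0.094 against 0.095) and *Recql4* (0.24 against 0.22) the spread was close to that of counting, and for *Blm* 42.7% of the variance lay beyond it (0.25 against 0.19). In liver the share of variance beyond counting was 87.1% for *Wrn*, 71.4% for *Recql5*, 70.8% for *Recql4*, 61.4% for *Recql* and 55.1% for *Blm*. Variance beyond counting also holds differences between libraries. The liver change of *Wrn* went with that of long against short transcripts (r = 0.82, and 0.60 without the 2 farthest strains). The *Wrn* figure in liver rests partly on BXD70, without which the SD of the change was 0.20 in place of 0.27. Likewise the *Blm* figure in cortex rests partly on BXD90, without which the SD of the change was 0.21 in place of 0.25.

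The parental strains lay apart in the cortex response of *Wrn*. Its change was -0.26 and -0.25 in the B6 pools, -0.76 and -0.79 in the D2 pools, -0.62 in BD-F1 and -0.67 in DB-F1. The pools of a strain differed by at most 0.037, and D2 minus B6 was -0.52 in the mean. In Ctr cortex D2 had the higher *Wrn* levels (4.46 and 4.47 log2 CPM, against 4.22 and 4.16 in B6), and after SD it had the lower ones (3.70 and 3.68, against 3.96 and 3.90). Of the 33 BXD/RwwJ lines, 12 changed as little as the B6 pools or less, 8 as much as the D2 pools or more, and 13 fell in between. The parental values are a description, since an exact permutation test of 2 pools against 2 cannot give a p below 0.333.

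For *Blm* in cortex the parental pools overlapped, at -0.93 and -0.46 in B6 and -0.76 and -0.97 in D2, and the B6 pools differed from each other by 0.46. *Recql4* in liver changed by -0.87 and -0.97 in D2 and by 0.54 and -0.31 in B6, where the repeat difference of B6 was 0.85. The liver response of *Recql5* again differed by strain, at -0.28 and -0.44 in B6, -1.06 and -0.93 in D2, and -0.60 and -0.30 in the F1 pools. Of the 33 BXD/RwwJ lines, 1 fell as far as the D2 pools. Over the 37 strains, the Ctr and SD levels of *Wrn* were positively related in liver (r = 0.53, permutation p = 9.1e-04, adjusted p = 0.00751, rho = 0.50, p = 0.00186, adjusted p = 0.0146, and r = 0.65 without the 2 farthest strains). In cortex the sign was negative, short of the threshold after adjustment (r = -0.34, permutation p = 0.0386, adjusted p = 0.116, rho = -0.40, p = 0.0137, adjusted p = 0.0755, and r = -0.38 without the 2 farthest). Ctr levels in cortex and liver showed no relation past the threshold for any of the 5 genes, with r between -0.17 and 0.13 and rho between -0.22 and 0.13 (lowest adjusted p 0.537 and 0.378 by permutation).

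**Figure D4:**
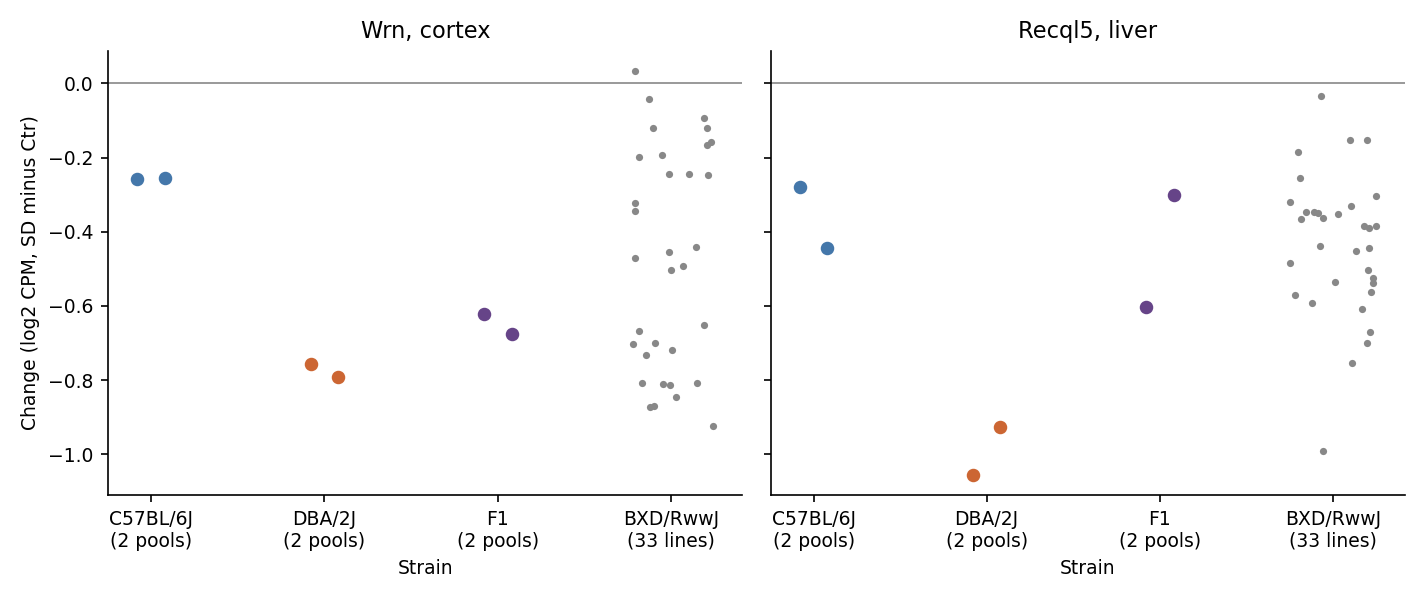
Change (log2 CPM, SD minus Ctr, vertical axis) of *Wrn* in cortex (left) and of *Recql5* in liver (right) in pools of C57BL/6J, DBA/2J and the F1 hybrids (large points, 2 pools each) and in 33 BXD/RwwJ lines (grey). The D2 pools lie below the B6 pools in both panels, and the lines span both parents for *Wrn*.

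The genes whose change was most like that of a RecQ gene over 39 pools are the top of a ranking of all listed genes, whose top holds high values of r whatever the gene, and they are given as a description. For *Wrn* in cortex the first 5 were *Ino80* (r = 0.58), a chromatin remodeller, *Mbtd1* (0.57), *Fanci* (0.57), of the Fanconi anaemia pathway, *Xpc* (0.57), a sensor of nucleotide excision repair, and *4933406I18Rik* (0.56). *Blm* came at rank 349. *Fanci* and *4933406I18Rik* rested on few reads (means of 15.4 and 19.4). Without BXD90 the r of these 5 genes was 0.50 to 0.56, and that of *Blm* was 0.24.

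Among the genes most like the relatives in cortex were *Arnt2*, *Abcd2* and *Map4* for *Blm* (r = 0.69, 0.67 and 0.66, and 0.55, 0.55 and 0.62 without BXD90), *Prkab2* and *Fndc3b* for *Recql* (0.62 and 0.59), *Rnf25*, *AK010878* and *Bloc1s2* for *Recql4* (0.59, 0.52 and 0.51) and *Pecam1*, *Trim25* and *Lag3* for *Recql5* (0.64, 0.56 and 0.54). For the genes named beside *Recql*, *Recql4* and *Recql5*, r was 0.53 to 0.64 without BXD90. In liver they were *Vps13c* and *Anapc1* for *Wrn* (0.87 and 0.86, and 0.73 for each without BXD70) and *Hist2h2be*, *D7Ertd715e* and *Ccdc141* for *Blm* (0.59, 0.59 and 0.56). They were *Spats2*, *Tfcp2* and *Ccdc66* for *Recql* (0.76, 0.76 and 0.72), *D430042O09Rik*, *Esr1* and *Rtel1* for *Recql4* (0.70, 0.70 and 0.69, and 0.59, 0.59 and 0.61 without BXD70) and *Krba1*, *Leng8* and *Ppip5k1* for *Recql5* (0.72, 0.70 and 0.70). For those beside *Blm*, *Recql* and *Recql5*, r was 0.59 to 0.76 without BXD70. No RecQ gene was among the nearest of another, the closest being *Recql4* at rank 75 for *Recql5* in liver (r = 0.56).

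The listed neighbours of *Wrn* on chromosome 8 moved in both directions. *Purg*, which starts 0.798 kb from *Wrn* on the opposite strand, rose in cortex by 0.15 (SE 0.024, limma adjusted p = 1.54e-07) and in liver by 0.79 (SE 0.067, adjusted p = 1.91e-17). On the same side, *Tex15*, 131 kb away, fell in cortex (-0.59, SE 0.10, limma adjusted p = 5.22e-07) and *Ppp2cb*, 214 kb away, rose (0.12, SE 0.023, adjusted p = 1.86e-06). On the other side the listed genes were farther off, *Nrg1* at 1225 kb, *Fut10* at 1973 kb and *Mak16* at 2066 kb. There *Mak16* rose in cortex (0.14, SE 0.035, limma adjusted p = 4.09e-04), and *Nrg1* (-0.078, adjusted p = 0.123) and *Fut10* (-0.21, adjusted p = 0.276) did not pass. Over the 39 cortex pools the change of *Mak16* had an r of -0.58 with that of *Wrn*. For the other neighbours this r was -0.21 to 0.15.

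Among other genes of DNA repair and replication, rises and falls were mixed in both tissues. Of 16 other helicases and translocases of repair listed in cortex, 7 were called lower and 2 higher, with a median change of -0.057 against -0.0097 over all genes. *Hfm1*, a meiotic helicase, changed by -0.61 (SE 0.13, limma adjusted p = 1.61e-05) and *Fancm*, a translocase of the Fanconi anaemia pathway, by -0.54 (SE 0.028, adjusted p = 4.68e-30). In liver 4 of 16 were lower and 2 higher (median -0.018, all genes -0.0015), led by *Ddx11* (-0.41) and *Rtel1* (-0.40), the latter a regulator of telomere length.

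The proteins known to bind WRN gave 8 lower and 5 higher calls of 18 in cortex (median -0.035) and 8 lower and 3 higher of 18 in liver (median -0.093). The exonuclease gene *Exo1* (-0.80, at a mean of 15.2 reads) and *Rad50* (-0.28), of the complex that holds broken ends, changed most in cortex, and *Prkdc* (-0.46) and *Mre11a* (-0.33), both of end joining or end processing, in liver. Of the partners of BLM and the topoisomerases, 2 of 6 were higher and 2 lower in cortex and 1 of 7 higher in liver. *Top1*, which relaxes supercoils during transcription, rose in both tissues, by 0.36 in cortex and 0.28 in liver. *Top2a* passed narrowly in cortex (0.22, SE 0.099, limma adjusted p = 0.0444), at a mean of 24.3 reads and with a rise in 25 of 39 pools.

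In homologous recombination, 6 of 16 genes were lower and 5 higher in cortex (median -0.043), with *Rad54l* (-0.60, at a mean of 14.3 reads) and *Brca2* (-0.58) the most changed. In liver 4 of 17 were lower and 4 higher (median 0.0053). *Rad51c* rose there by 1.74 (SE 0.13, limma adjusted p = 1.53e-20) in 39 of 39 pools, and *Brca2* fell by 0.53. Damage signalling gave 3 lower and 4 higher of 14 in cortex, where the checkpoint kinase gene *Chek1* (0.32) and *Hus1* (0.14) changed most. It gave 5 lower and 6 higher in liver, where *Clspn* (-0.53) and the kinase gene *Atr* (-0.45) changed most. *Clspn* was near the floor there, at a mean of 4.63 reads, and fell in 23 of 39 pools. The genes of the replicative helicase gave 4 lower and 2 higher of 14 in cortex, with *Cdc6* at 0.80 (a mean of 13.6 reads) and *Cdt1* at -0.67, and 3 lower and 4 higher in liver, with *Mcm6* at -0.57 and *Mcm3* at -0.39. These counts stand beside 68.4% of all genes called in cortex and 44.2% in liver.

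**Figure D5:**
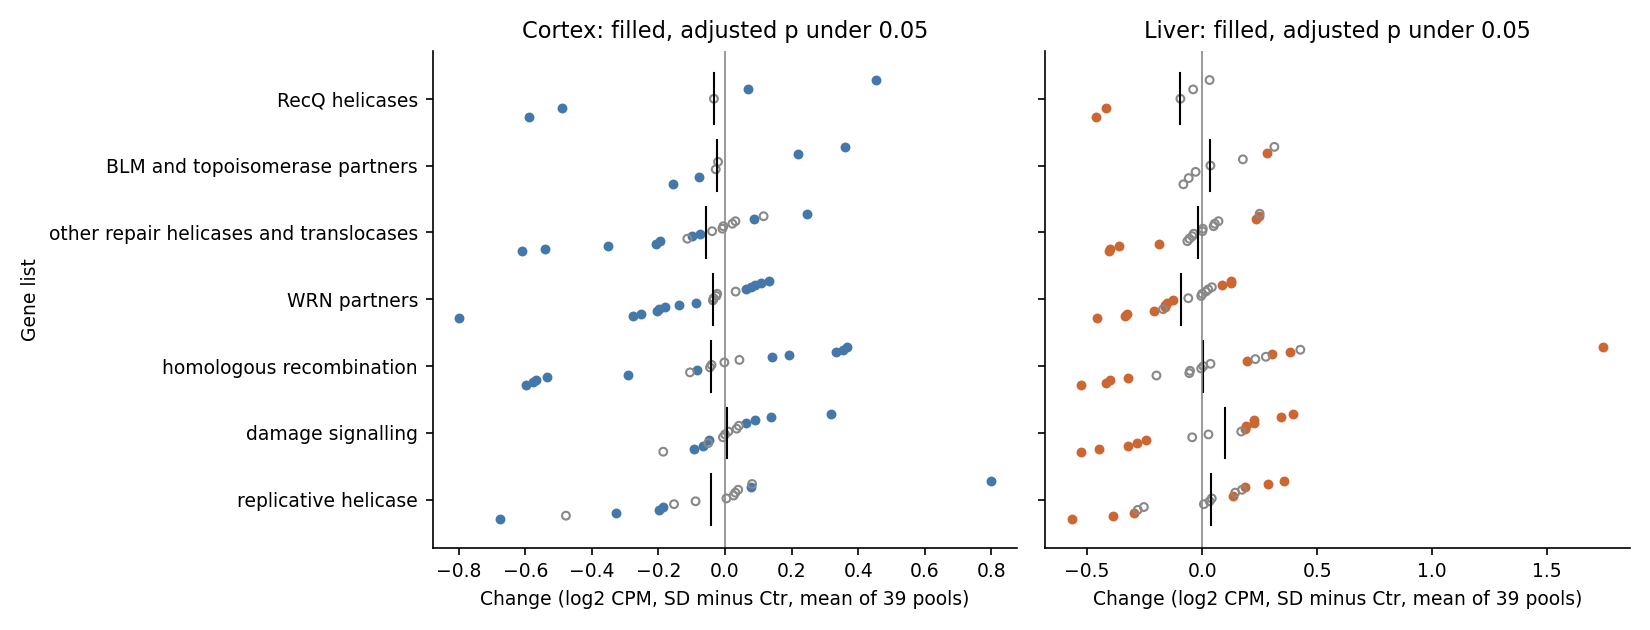
Mean change over 39 pools (log2 CPM, SD minus Ctr, horizontal axis) of each listed member of 7 gene lists in cortex (left) and liver (right). Filled points passed a limma adjusted p under 0.05, open points did not, and black bars mark the median of a list. Members of every list lie on both sides of 0 in cortex, and *Rad51c* is the point at 1.74 in liver.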

How the data were processed

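The authors deposited log2 CPM, in 1 table per tissue and condition. The authors' stranded libraries of pooled RNA were aligned to mm9 with STAR, counted on RefSeq genes with htseq-count, filtered for low counts and normalized by TMM with edgeR. Undoing the logarithm and a prior count close to 1 returned whole numbers of reads (tolerance 0.02) for 100% of values, which gave depths and counting error, which covers sampling of reads only.

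Groups came from the deposited labels. SD and Ctr were compared with limma 3.58.1 in R 4.3.3 (trend, no block), adjusted by Benjamini-Hochberg over all genes of a tissue, and the fit was tested on simulated data. The Ctr and SD pools of a line are paired by their line, and their deviations correlated (lowest r 0.299 in cortex, 0.169 in liver). Permutation tests used 100000 resamples (numpy 2.4.6, scipy 1.17.1). GENCODE vM1 gave lengths (93.8% of genes in cortex, 94.2% in liver, of those averaging 0 or more).

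The members and lists were chosen with earlier results of these data known. Named are the RecQ genes, the 2 most changed called members of each repair list per tissue, the 5 (*Wrn*, cortex) or 3 genes most like each member, and 3 listed neighbours on each side of *Wrn*. Some genes that this rule names are not reported here. Per tissue 1 library was made per pool, so p-values treat lines as replicates. The 16 libraries of 4 BXD/TyJ lines were kept apart. Alternatives are given with the closing observations.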

Additional observations from a re-analysis of the deposited data

Results flagged for a closer look

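The response to SD differed between tissues, by limma on the difference itself, for *Wrn* (liver minus cortex 0.40), *Recql5* (-0.43), *Recql4* (-0.42) and, narrowly, *Recql* (-0.11).

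The 4 BXD/TyJ lines, BXD05, BXD29, BXD29t and BXD32, are outside the comparisons above. In these lines the Ctr and SD levels did not overlap for *Wrn* in cortex (mean change -0.61), *Blm* in cortex (-0.55), *Blm* in liver (-0.52) and *Recql5* in liver (-0.71), and all 4 lines fell in each case. With so few lines such separation is common: 23.2% of all genes in cortex and 11.1% in liver had no overlap in these lines, 10.9% and 5.51% with the lower levels in SD. BXD05 changed by -0.022 for *Wrn* in cortex, where the others changed by -0.73 to -0.92.

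Among 30 groups of 4 BXD/TyJ values, 1 sample stood far from the other 3 in 2 groups: the Ctr cortex level of *Blm* in BXD05 (2.59 log2 CPM) and the SD cortex level of *Recql5* in BXD29t (4.95). Chance gives about 1 in 20 such groups.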

How the results depend on the processing

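The falls of *Wrn* and *Blm* and the rises of *Recql* and *Recql4* in cortex, and the falls of *Recql5* and *Blm* in liver, kept their direction and side of the threshold under all 14 alternatives and with each pool left out. With the line as a replicate block, which changed no call on the members but that of *Recql5* in cortex (-0.033, adjusted p = 0.0446), the adjusted p of *Wrn* in cortex was 2.97e-14. The change of *Recql5* in cortex also passed with voom weights and the block (-0.033), median-centred libraries (-0.037) and quantile normalization (-0.047), and it ranged from -0.039 to -0.028 with 1 pool left out, passing in 10 of 39 cases. The change of *Wrn* in liver passed with long against short transcript level as a covariate (-0.071), also with the block (-0.074), both chosen after seeing the data. *Recql4* in liver, not called, turned to -0.0034 without the lines with few mice (BXD79, BXD85, BXD101). The tissue difference of *Recql* was lost with median-centred libraries (-0.0996) and without the pairing of tissues (-0.11), and it ranged from -0.12 to -0.094 with 1 pool left out, passing in 21 of 39 cases. That of *Blm* ranged from 0.13 to 0.20 and passed in 4. *Recql4* minus *Wrn* in liver passed in the 33 BXD/RwwJ lines (0.19), with parental pools averaged (0.16) and in 1 of 39 cases with a pool left out (0.10 to 0.16). *Blm* minus *Wrn* in cortex passed in 6 of 39 (-0.12 to -0.083). The r of Ctr levels of *Blm* in cortex and liver turned to 0.033 in the 33 lines. With the block, the partners of BLM had 2 higher and 1 lower in liver. The causes were not tested. Depth limits *Recql4* and *Blm* most, above all in liver.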
